A study of Homo sapiens with 9 samples.

Results

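The 33 genes described here carry glucose into the cell, break it down to lactate, export the lactate, or report on the hypoxia-inducible factor HIF-1. They were taken by symbol from a list of these pathways that was drawn up with earlier results of these data known, and all 33 had a row among the 26475 rows of the deposited read count table. RNA was measured in MDA-MB-231, an established human triple-negative breast adenocarcinoma line, in 9 libraries of 3 groups. Control cells were stably transduced with the empty pLKO.1 vector, knockdown cells with pLKO.1-shACSL4, a short hairpin RNA against the acyl-CoA synthetase ACSL4; PRGL493, an inhibitor of ACSL4, was given to empty-vector cells to make the remaining group. All groups thus carried a pLKO.1 lentiviral vector. The labels describe 3 batches of cells per group, give no dose, exposure time, vehicle, oxygen tension or glucose level, and name a single hairpin construct. Replicates were thus batches of already transduced cells, and p-values here refer to the variation among such batches only.

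Glycolysis splits glucose into pyruvate, and lactate dehydrogenase turns pyruvate into lactate, which leaves the cell with a proton through monocarboxylate transporters. Many cancer cells run this route even with oxygen present. HIF-1 is made of an oxygen-labile subunit, HIF1A, and a stable partner. In low oxygen it accumulates and switches on genes that hold the core motif ACGTG or GCGTG, among them most glycolytic genes as well as genes for blood vessel growth and acid handling.

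Library totals ran from 28673940 to 43027217 counts, and all 33 members passed the filter on low counts that left 14135 genes for testing. ACSL4 itself was at 342, 339 and 366 CPM (counts scaled to a common library size, with TMM factors) in the control libraries and at 29.5, 23.7 and 27.6 CPM under the hairpin. The markers of a mesenchymal line were high (VIM 1610 to 1810 CPM, CD44 1257 to 1562 CPM), while ESR1 and PGR stayed at or below 0.155 CPM and CDH1 at or below 2.04 CPM. GATA3, also listed as a marker expected to be low, was at 10.9 to 15.2 CPM. ERBB2, which defines another breast cancer class, was still at 68.0 to 104 CPM. Of the markers of other cell types, PTPRC, CD3E and CDH5 stayed at or below 0.229 CPM, and PECAM1, LUM, PDGFRB and CD14 lay between 1.08 and 41.0 CPM. Knockdown replicate 2 stood apart. In it, the log2 level minus the gene's mean over all libraries had a median of 0.17 for genes with transcripts of up to 1766 bp and of -0.15 for those beyond 4275.5 bp, whereas the other 8 libraries gave medians from -0.07 to 0.06. Its part in the results was not tested beyond the values given without it.

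With PRGL493 most of the 15 glycolytic enzymes rose and most of the 7 HIF targets among the members fell. Of 15 glycolytic enzymes 13 rose and 2 fell (edgeR quasi-likelihood test, adjusted p below 0.05), with a median log2 fold change of 0.32, where 21.4% of all genes tested rose and 20.4% fell and the median was 0.01. Of 7 HIF targets 5 fell and 1 rose, with a median of -0.53. HIF targets outside the members were more mixed, as 13 of 36 tested fell, 7 rose and the median was -0.02. The lactate transporter SLC16A1 had the largest change of the 33 genes and fell to 0.298 of control. In ACSL4 knockdown 3 of the 7 HIF targets fell and 0 rose (42.9% lower). Of the 15 enzymes 2 were called higher and 5 lower (13.3% and 33.3%), and 8 were not called. Among all genes 14.7% were called higher and 15.3% lower. The knockdown counts of enzymes moved with single libraries. The higher count was 0 without knockdown replicate 2 or any 1 control library, and 4 without knockdown replicate 1. It was 1 without knockdown replicate 3 or any 1 PRGL493 library. The lower count was 3 without control replicate 3. In the direct comparison, 12 enzymes were lower in knockdown than in PRGL493 cells and 2 were higher, beside 26.0% lower and 24.4% higher among all genes. Over the 33 members, 16 rose and 12 fell with PRGL493, and 3 rose and 10 fell in knockdown cells. Both treatments were set against the same 3 control libraries.

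**Figure D1:**
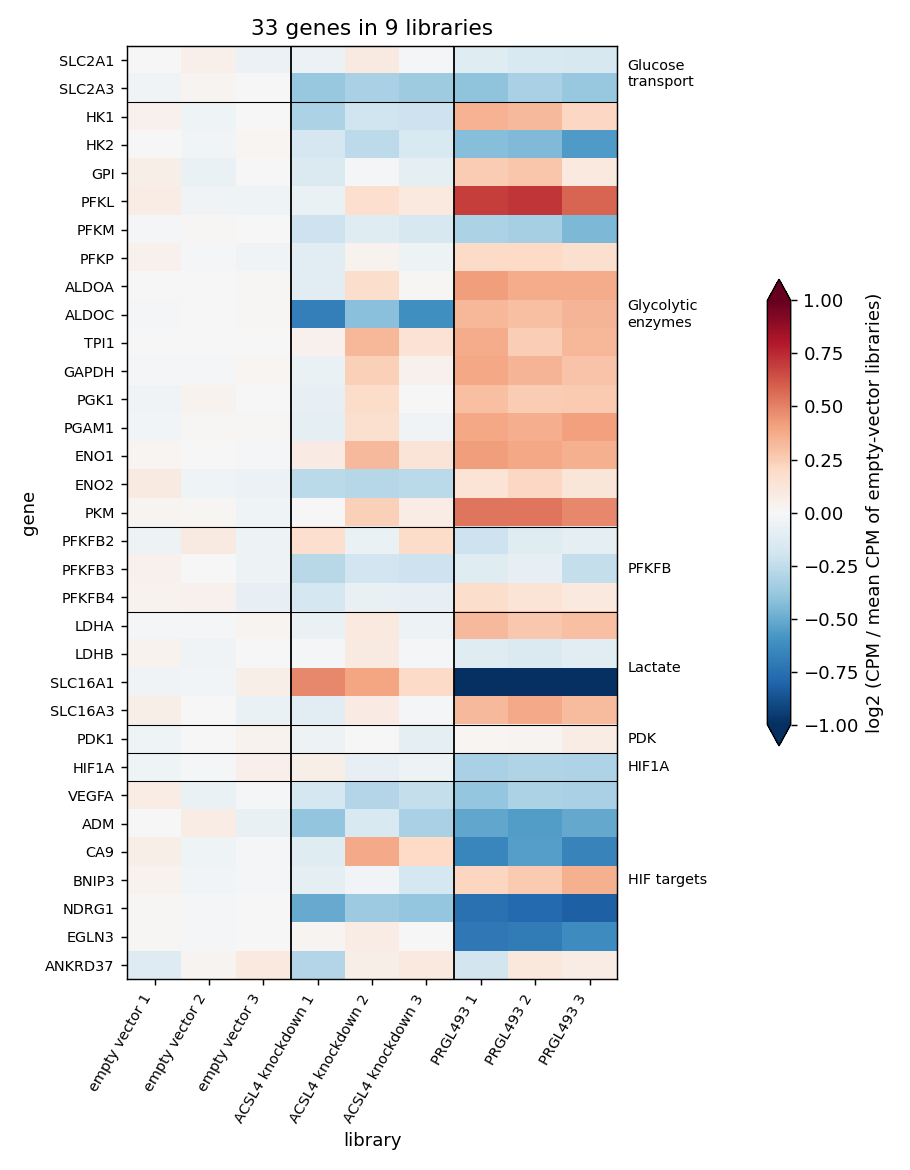
Level of the 33 genes (rows, grouped by role) in the 9 libraries (columns) as log2 of CPM over the mean CPM of the 3 empty-vector libraries. The colour scale ends at -1 and 1, and SLC16A1 with PRGL493 lies beyond it. The PRGL493 columns are red for 13 of 15 enzymes and blue for 5 of 7 HIF targets, and in the knockdown columns replicate 2 has the highest value of the group for most enzymes.

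Promoters are shown here for 3 genes that rose with PRGL493 and 3 HIF targets that fell, so that the letters HIF-1 is known to bind can be compared between the directions. Each runs 5′ to 3′ on the strand of the gene, from 250 bases before to 50 bases after a RefSeq transcript start (GRCh38.p14). Capitals mark ACGTG or GCGTG on either strand, so that CACGT and CACGC are the same motifs on the other strand and a palindromic CACGTG counts on both. PGK1 is at chrX:78103998-78104297, plus strand, ALDOC at chr17:28576846-28577145, minus strand, and PFKL at chr21:44299803-44300102, plus strand. CA9 is at chr9:35673678-35673977, plus strand, ADM at chr11:10304823-10305122, plus strand, and EGLN3 at chr14:33951025-33951324, minus strand.
PGK1: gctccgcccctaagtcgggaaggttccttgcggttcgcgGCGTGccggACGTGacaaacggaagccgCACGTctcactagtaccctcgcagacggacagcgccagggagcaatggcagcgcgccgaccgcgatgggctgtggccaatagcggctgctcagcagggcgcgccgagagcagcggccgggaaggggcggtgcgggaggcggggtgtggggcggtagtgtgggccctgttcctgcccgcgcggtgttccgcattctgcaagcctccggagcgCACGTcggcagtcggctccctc
ALDOC: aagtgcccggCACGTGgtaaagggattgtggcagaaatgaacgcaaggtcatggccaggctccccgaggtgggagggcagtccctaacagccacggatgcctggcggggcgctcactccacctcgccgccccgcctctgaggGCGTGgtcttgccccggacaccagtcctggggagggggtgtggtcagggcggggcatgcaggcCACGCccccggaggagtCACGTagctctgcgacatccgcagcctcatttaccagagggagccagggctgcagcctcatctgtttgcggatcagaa
PFKL: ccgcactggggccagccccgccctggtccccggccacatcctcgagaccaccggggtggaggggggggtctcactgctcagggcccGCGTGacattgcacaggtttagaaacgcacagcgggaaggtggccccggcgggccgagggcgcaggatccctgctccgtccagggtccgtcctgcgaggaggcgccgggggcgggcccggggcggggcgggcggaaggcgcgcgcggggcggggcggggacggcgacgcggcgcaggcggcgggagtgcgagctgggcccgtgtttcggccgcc
CA9: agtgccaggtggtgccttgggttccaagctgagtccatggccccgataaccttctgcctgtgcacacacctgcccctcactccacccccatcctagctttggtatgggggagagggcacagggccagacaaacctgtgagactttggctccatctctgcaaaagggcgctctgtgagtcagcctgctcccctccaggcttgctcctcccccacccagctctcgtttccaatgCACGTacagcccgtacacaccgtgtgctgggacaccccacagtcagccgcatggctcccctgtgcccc
ADM: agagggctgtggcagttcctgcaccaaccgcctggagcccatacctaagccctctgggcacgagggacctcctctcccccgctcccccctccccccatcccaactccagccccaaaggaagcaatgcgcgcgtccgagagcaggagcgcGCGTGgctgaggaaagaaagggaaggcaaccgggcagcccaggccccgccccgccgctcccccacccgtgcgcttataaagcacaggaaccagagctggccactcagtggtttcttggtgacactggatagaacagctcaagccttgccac
EGLN3: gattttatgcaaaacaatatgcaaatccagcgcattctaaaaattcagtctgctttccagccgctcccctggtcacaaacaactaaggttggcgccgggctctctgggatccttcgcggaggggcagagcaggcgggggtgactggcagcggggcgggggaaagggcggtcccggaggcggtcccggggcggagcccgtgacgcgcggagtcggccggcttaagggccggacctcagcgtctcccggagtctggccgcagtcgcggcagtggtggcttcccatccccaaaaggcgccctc
The window of PGK1, which rose, held 4 motif matches and that of ALDOC, which also rose, 5. PFKL, the enzyme that rose most, held 1, as did CA9 and ADM, which fell. The EGLN3 window held no match, which says only that these letters are not in this window. RefSeq windows of equal length were matched for 28 members with 55 starts, some of which overlap. The windows shown do not stand for all members of a direction. HK2, which fell, held 3 and 6 matches in its windows, and the window of PGAM1, which rose, held 0. SLC2A3, SLC16A1, NDRG1 and VEGFA, which fell with PRGL493, and PFKFB2, which was not called, were not searched. At least 1 match was in 36 of the 55 windows (65.5%), against 48.4% of 35116 windows of all genes. Split by direction with PRGL493, a match at 1 or more starts was found for 15 of 16 members that rose and 7 of 8 searched members that fell, beside 14318 of 27305 genes in all. Members with several starts had more windows in which to hold a match. The motif letters thus stood in promoters of both directions.

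Glucose enters through facilitative transporters. SLC2A1, the main glucose transporter of most cancer cells, was at 907 ± 32.9 CPM in control, 912 ± 47.7 CPM in knockdown and 820 ± 11.5 CPM in PRGL493 cells (SD, n = 3 throughout). It fell with PRGL493 (log2 change -0.15, SE 0.05, adjusted p = 0.027), a call lost without control replicate 1 or 2 or PRGL493 replicate 2 or 3 (adjusted p up to 0.13), and did not pass the test in knockdown (0.01, SE 0.05, adjusted p = 0.92). SLC2A3, a transporter with high affinity for glucose, fell in both treatments, from 171 ± 3.64 CPM to 134 ± 2.40 CPM in knockdown (-0.35, SE 0.05, adjusted p = 3.9e-05) and to 132 ± 3.67 CPM with PRGL493 (-0.37, SE 0.05, adjusted p = 1.2e-05). Its 3 control libraries lay above all 6 treated ones. The direct comparison of the treatments did not separate them for SLC2A3 (0.02, SE 0.05, adjusted p = 0.78). Per kilobase of transcript, SLC2A1 was at 247 and SLC2A3 at 43.7 CPM in control cells. SLC2A3 shares sequence with SLC2A14, and 5 of its 9 values were not whole numbers.

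Hexokinase traps glucose in the cell as its phosphate, and its isoforms went in opposite directions with PRGL493. HK1, the widely expressed form, rose from 342 ± 10.3 to 419 ± 21.7 CPM (log2 change 0.29, SE 0.05, adjusted p = 0.00032). HK2, the inducible form and a known HIF target, fell from 129 ± 2.02 to 92.2 ± 4.85 CPM (-0.48, SE 0.05, adjusted p = 3.1e-06). In both cases the PRGL493 libraries did not overlap the control libraries. The share of HK2 in the per-kilobase sum of the pair was 18.6%, 19.2% and 19.3% under empty vector and 12.1% in each PRGL493 library. Under the hairpin it was 20.6%, 18.4% and 19.6%, on both sides of the control values. Both isoforms were lower in knockdown, HK1 at 290 ± 12.9 CPM (-0.24, SE 0.05, adjusted p = 0.0029) and HK2 at 112 ± 4.55 CPM (-0.19, SE 0.05, adjusted p = 0.013). HK2 lost its call without control replicate 3 (adjusted p = 0.053). GPI, which turns glucose phosphate into fructose phosphate, rose with PRGL493 from 403 ± 17.3 to 466 ± 31.3 CPM (0.21, SE 0.06, adjusted p = 0.0067), a call lost without PRGL493 replicate 2 (adjusted p = 0.057). In knockdown GPI was at 379 ± 17.3 CPM and was not called (-0.09, adjusted p = 0.28).

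Phosphofructokinase commits the sugar to glycolysis. PFKL, its liver-type subunit (chromosome 21, 44300051 to 44327376, plus strand, GRCh38), was at 221, 205 and 203 CPM under empty vector, 201, 236 and 225 CPM under the hairpin and 339, 344 and 314 CPM under the inhibitor. Knockdown and control overlapped, and all PRGL493 libraries lay above the other 6. The rise with PRGL493 was 1.58-fold (log2 0.66, SE 0.06, adjusted p = 2.9e-07), the largest among the 15 enzymes. In knockdown PFKL was not called (0.07, SE 0.06, adjusted p = 0.41). It was called higher there when a trend with transcript length and GC content was removed (adjusted p down to 0.0036). The direct comparison separated the treatments (-0.59, SE 0.06, adjusted p = 7.0e-07). PFKP, the platelet-type subunit, rose less with PRGL493 (527 ± 14.1 to 599 ± 8.53 CPM, 0.19, SE 0.05, adjusted p = 0.0057). PFKM, the muscle-type subunit, fell from 75.7 ± 0.747 to 58.8 ± 2.88 CPM (-0.36, SE 0.06, adjusted p = 5.9e-05). The makeup of the family changed accordingly. Per kilobase, PFKL held 24.4 ± 0.428% of the 3 subunits' sum in control and 31.8 ± 0.721% in PRGL493 cells, while PFKM went from 8.34 ± 0.300% to 5.32 ± 0.129% and PFKP stayed the major form at 67.3 ± 0.136% and 62.9 ± 0.836%. With 3 libraries against 3 an exact permutation test cannot go below 0.1, so no p is given for shares. In knockdown PFKP was not called (-0.04, adjusted p = 0.57) and PFKM was lower (67.7 ± 2.04 CPM, -0.16, SE 0.05, adjusted p = 0.034), a call lost under 10 of 19 alternatives, among them leaving out any 1 control library, knockdown replicate 1 or 3, or PRGL493 replicate 2 (adjusted p up to 0.11). PFKM overlaps exons of SENP1 on the other strand, and strand-specific counting is not stated.

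The PFKFB enzymes make and remove the sugar bisphosphate that activates phosphofructokinase. PFKFB3, the isoform with the strongest kinase activity, was lower in both treatments, at 130 ± 4.45 CPM in control, 111 ± 3.51 CPM in knockdown (log2 change -0.23, SE 0.05, adjusted p = 0.0051) and 117 ± 6.47 CPM with PRGL493 (-0.14, SE 0.05, adjusted p = 0.043). The PRGL493 call of PFKFB3 was lost under 8 of 19 alternatives, among them leaving out control replicate 1 or 2, knockdown replicate 3, or PRGL493 replicate 1 or 3 (adjusted p up to 0.16). PFKFB4, at 85.9 ± 4.09 CPM in control, was not called in knockdown (-0.11, adjusted p = 0.14) or with PRGL493 (0.14, adjusted p = 0.053), but differed between the treatments (-0.25, SE 0.06, adjusted p = 0.0012). PFKFB2, the least abundant at 17.7 ± 1.03 CPM, was not called against control in either treatment (0.10, adjusted p = 0.38, and -0.14, adjusted p = 0.18). It was higher in knockdown than with PRGL493 (0.24, SE 0.08, adjusted p = 0.02). That call was lost without knockdown replicate 3 or PRGL493 replicate 1 (adjusted p up to 0.089).

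Aldolase splits the 6-carbon sugar. ALDOA, the major form, rose with PRGL493 from 1218 ± 6.88 to 1595 ± 31.3 CPM (log2 change 0.39, SE 0.06, adjusted p = 6.0e-05) and was not called in knockdown (1246 ± 123 CPM, 0.03, adjusted p = 0.72). ALDOC, the form known from brain (chromosome 17, 28573115 to 28577264, minus strand), moved both ways. It was at 33.9, 34.4 and 34.6 CPM under empty vector, 21.4, 25.6 and 22.4 CPM under the hairpin and 43.1, 42.2 and 43.3 CPM under the inhibitor. The 3 groups did not overlap, with knockdown lowest and PRGL493 highest. ALDOC fell to 0.674 of control in knockdown (-0.57, SE 0.07, adjusted p = 1.1e-05) and rose 1.25-fold with PRGL493 (0.32, SE 0.07, adjusted p = 0.0010). Between the treatments ALDOC differed by -0.89 (SE 0.07, adjusted p = 2.2e-08), the widest gap of the 15 enzymes. It held 2.19 ± 0.0157% of the aldolase pair per kilobase in control and 1.46 ± 0.0255% in knockdown.

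The enzymes after aldolase all rose with PRGL493, and ENO1, GAPDH and PKM had the highest control levels per kilobase of the 15 enzymes (1934, 1543 and 1059 CPM per kilobase). TPI1, which interconverts the triose phosphates, went from 489 ± 1.41 to 610 ± 27.0 CPM (log2 change 0.32, adjusted p = 0.00063). GAPDH, which oxidises them, went from 1938 ± 27.1 to 2452 ± 85.3 CPM (0.34, adjusted p = 0.00035). PGK1, the first step to make ATP, went from 1478 ± 36.1 to 1784 ± 29.1 CPM (0.27, adjusted p = 0.0014). The mutase PGAM1 followed, from 635 ± 9.80 to 831 ± 12.5 CPM (0.39, adjusted p = 4.6e-05). ENO1, the ubiquitous enolase, went from 3445 ± 54.8 to 4500 ± 88.0 CPM (0.39, adjusted p = 4.6e-05), and ENO2, the neuronal form, from 226 ± 13.1 to 251 ± 8.01 CPM (0.15, adjusted p = 0.023). The SE was 0.05 or 0.06 for each of these genes, and ENO2 lost its call under 5 of 19 alternatives, among them leaving out control replicate 2 or 3 or PRGL493 replicate 1 or 2 (adjusted p up to 0.14).

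PKM, the pyruvate kinase of the last step (chromosome 15, 72199029 to 72231822, minus strand), was at 2504, 2481 and 2382 CPM under empty vector, 2449, 2892 and 2581 CPM under the hairpin and 3564, 3559 and 3428 CPM under the inhibitor. Control and knockdown overlapped, and the PRGL493 libraries lay above both. PKM rose 1.43-fold with PRGL493 (log2 0.52, SE 0.06, adjusted p = 1.9e-06), was not called in knockdown (0.10, SE 0.06, adjusted p = 0.17) and differed between the treatments (-0.41, SE 0.06, adjusted p = 1.3e-05). PKM was called higher in knockdown with the length and GC trend removed, and without knockdown replicate 1 (adjusted p down to 0.014). The table counts genes, so the M1 and M2 splice forms of PKM were not told apart. GENCODE lists 62 pseudogenes named after GAPDH, none of which has a row in the table, and the GAPDH values were all whole. It lists 13 named after PGAM1, 1 of them with a row, and PGAM1 had values that were not whole in all 9 libraries. For TPI1 it lists 4, 2 of them with a row. Exons of PGK1 overlap ATP7A on the same strand, and those of TPI1 overlap SPSB2 on the other strand. Whether reads were shared with these copies or overlapping genes was not tested.

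In knockdown 3 of these genes passed the test. ENO1 (3908 ± 360 CPM, log2 change 0.18, SE 0.06, adjusted p = 0.022) and TPI1 (553 ± 56.8 CPM, 0.18, SE 0.06, adjusted p = 0.042) were called higher, and neither was called without knockdown replicate 2 (0.10, adjusted p = 0.053, and 0.09, adjusted p = 0.14). Both also lost the call when any 1 control library was left out, and TPI1 when any library but knockdown replicate 1 was left out (adjusted p up to 0.14). ENO2 fell to 187 ± 1.03 CPM (-0.27, SE 0.05, adjusted p = 0.00072), so that the enolase pair moved apart. ENO2 held 4.60 ± 0.192% of the pair per kilobase in control, 3.41 ± 0.308% in knockdown and 3.94 ± 0.134% in PRGL493 cells. GAPDH, PGK1 and PGAM1 were not called (0.08, 0.04 and 0.02, adjusted p of 0.36, 0.66 and 0.85). The 15 enzymes together took 1.36%, 1.34% and 1.34% of all counts in the control libraries, 1.35%, 1.58% and 1.42% under the hairpin, and 1.78%, 1.75% and 1.73% under the inhibitor. Knockdown replicate 2 was the high one, and without it the knockdown mean was 1.39%, against 1.45% with it. All 3 PRGL493 libraries lay above the other 6.

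**Figure D2:**
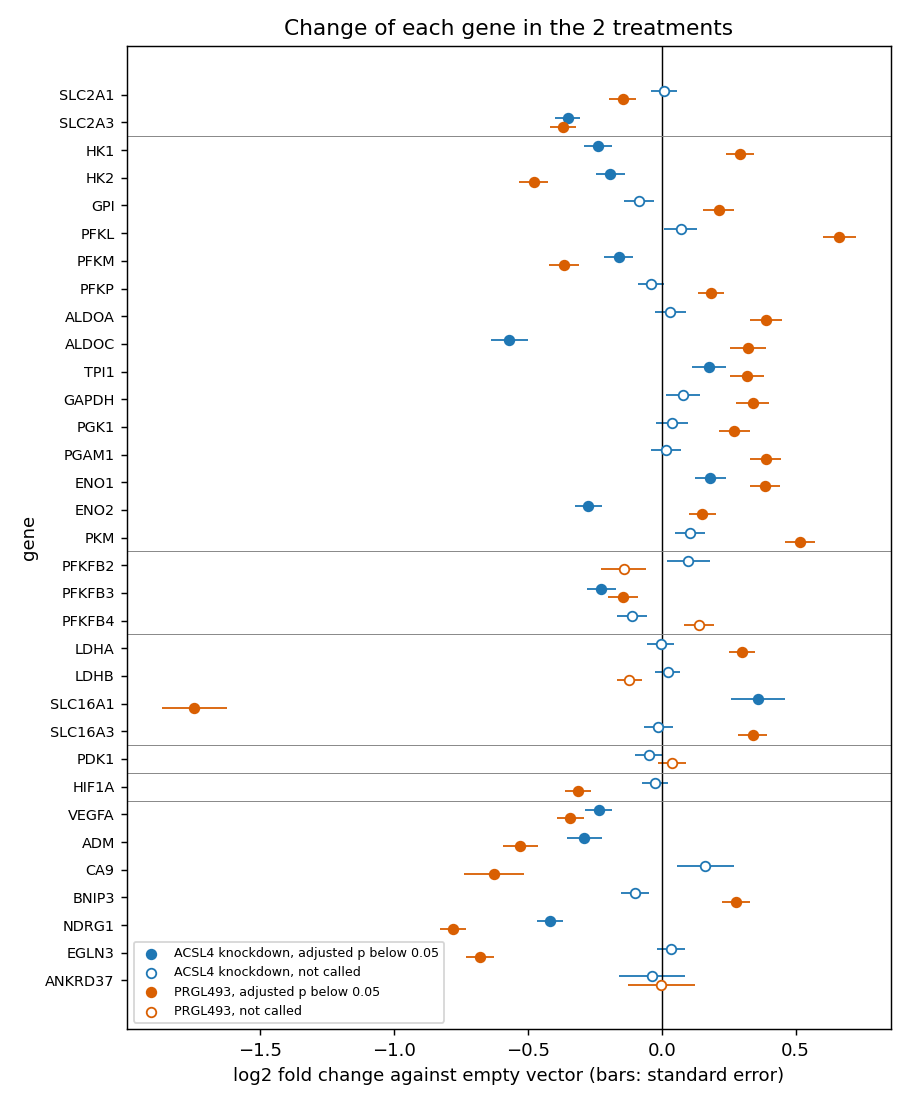
Log2 fold change against empty vector (x axis, bars give the standard error) of each of the 33 genes (y axis, grouped by role) in knockdown and PRGL493 cells. Filled points passed the test at an adjusted p below 0.05. With PRGL493, 13 of 15 enzymes are filled to the right of 0, while HK2 and PFKM are filled to the left, and SLC16A1 is at -1.75 with PRGL493 and 0.36 in knockdown.

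Lactate production and export came next. LDHA, the subunit that favours pyruvate to lactate, rose with PRGL493 from 2497 ± 47.8 to 3074 ± 57.4 CPM (log2 change 0.30, SE 0.05, adjusted p = 0.00016). LDHB, the subunit known to favour the reverse step, was at 322 ± 7.37 and 296 ± 4.07 CPM and lay at the threshold without passing it (-0.12, SE 0.05, adjusted p = 0.050). LDHB held 11.3 ± 0.332% of the pair per kilobase in control cells, 11.5 ± 0.211% in knockdown and 8.68 ± 0.118% with PRGL493. Neither subunit was called in knockdown (-0.00, adjusted p = 0.96, and 0.02, adjusted p = 0.76). With the length and GC trend removed LDHA was called lower in knockdown (adjusted p down to 0.03).

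SLC16A1 encodes MCT1, a transporter that moves lactate in or out (chromosome 1, 112911847 to 112957013, minus strand). It was at 8.97, 8.99 and 9.56 CPM under empty vector, 12.8, 12.0 and 10.5 CPM under the hairpin and 2.65, 2.38 and 3.16 CPM under the inhibitor. Behind these levels were 274 to 313 counts per control, 408 to 561 per knockdown and 68 to 109 per PRGL493 library. No library of one group reached another group, with knockdown highest and PRGL493 lowest. SLC16A1 fell with PRGL493 to 0.298 of control (log2 -1.75, SE 0.12, adjusted p = 8.3e-09) and rose 1.28-fold in knockdown (0.36, SE 0.10, adjusted p = 0.014). The direct comparison gave a 4.30-fold higher level in knockdown than with PRGL493 (2.11, SE 0.12, adjusted p = 4.5e-10). The rise in knockdown lost its call without control replicate 1 or control replicate 2 (adjusted p up to 0.053). SLC16A1 overlaps the antisense gene SLC16A1-AS1, whose reads cannot be told apart without strand.

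SLC16A3 encodes MCT4, the exporter typical of glycolytic cells. It had the higher RNA level of the pair at 313 CPM per kilobase in control cells, against 2.35 for SLC16A1. It rose with PRGL493 from 628 ± 27.3 to 794 ± 18.0 CPM (log2 change 0.34, SE 0.05, adjusted p = 9.9e-05) and was not called in knockdown (622 ± 40.7 CPM, -0.01, adjusted p = 0.88). The RNA of SLC16A3 and that of SLC16A1 thus went opposite ways with PRGL493, and transport itself was not measured. SLC16A3 overlaps exons of CSNK1D on the other strand. PDK1, the HIF target kinase that keeps pyruvate out of mitochondria, was not called in any comparison and lay at 83.6 ± 2.22, 80.9 ± 2.77 and 85.9 ± 1.84 CPM in control, knockdown and PRGL493 cells.

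**Figure D3:**
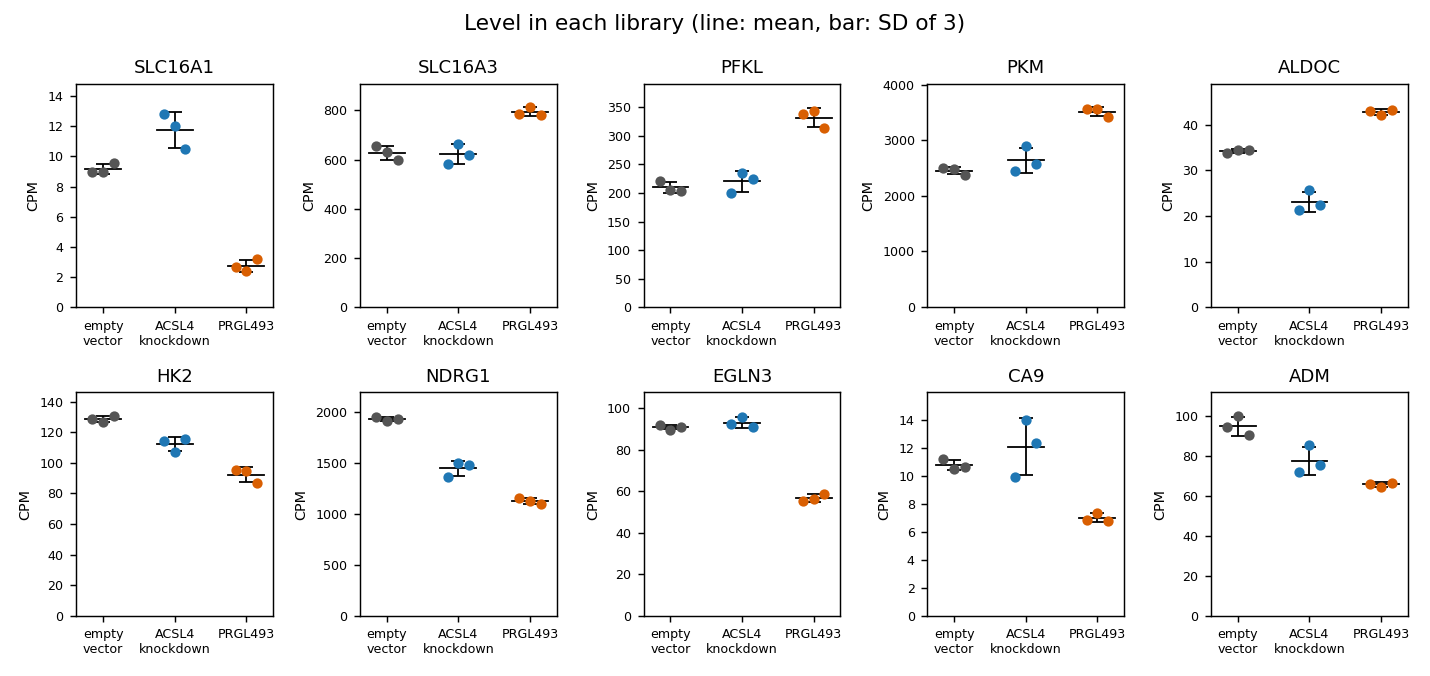
CPM (y axis, from 0) of 10 genes in each library, with points for the 3 libraries of a group, a line for the mean and a bar for the SD. SLC16A1 and ALDOC separate all 3 groups, PFKL, PKM and SLC16A3 are high with PRGL493 alone, EGLN3 and CA9 are low with PRGL493 alone, and NDRG1 and ADM step down from control to knockdown to PRGL493.

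HIF1A, the oxygen-regulated subunit, is controlled mainly through stability of the protein, which RNA does not show. Its RNA fell with PRGL493 from 601 ± 20.2 to 484 ± 4.83 CPM (log2 change -0.31, SE 0.05, adjusted p = 9.7e-05) and was not called in knockdown (591 ± 30.2 CPM, -0.02, adjusted p = 0.75). All 9 HIF1A values were fractional, and its exons overlap HIF1A-AS1 on the other strand.

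Among the HIF targets, NDRG1, a stress-induced gene linked to differentiation and suppression of metastasis (chromosome 8, 133237171 to 133302022, minus strand), was at 1950.0, 1911 and 1930.3 CPM under empty vector. It was at 1359.7, 1502 and 1475 CPM under the hairpin and 1153, 1127 and 1093 CPM under the inhibitor. The groups did not overlap and lay in the order control, knockdown, PRGL493. NDRG1 fell to 0.749 of control in knockdown (log2 -0.42, SE 0.05, adjusted p = 7.8e-06) and to 0.583 with PRGL493 (-0.78, SE 0.05, adjusted p = 2.3e-09), and the difference between treatments passed the test (0.36, SE 0.05, adjusted p = 1.2e-05).

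EGLN3, a prolyl hydroxylase that marks HIF1A for breakdown and is itself induced by HIF (chromosome 14, 33924231 to 34462774, minus strand), was at 91.7, 89.7 and 90.9 CPM under empty vector, 92.4, 95.8 and 90.9 CPM under the hairpin and 55.3, 56.1 and 58.8 CPM under the inhibitor. Knockdown overlapped control, and PRGL493 was below both. EGLN3 fell to 0.625 of control with PRGL493 (log2 -0.68, SE 0.05, adjusted p = 3.2e-08) and was not called in knockdown (0.04, SE 0.05, adjusted p = 0.65). The treatments differed (0.71, SE 0.05, adjusted p = 1.3e-08). CA9, the cell-surface carbonic anhydrase used as a hypoxia marker (chromosome 9, 35673856 to 35681159, plus strand), was low throughout. It was at 11.2, 10.5 and 10.7 CPM under empty vector, 9.94, 14.0 and 12.4 CPM under the hairpin and 6.86, 7.37 and 6.78 CPM under the inhibitor. Knockdown values lay on both sides of control, and PRGL493 values were below all others. CA9 fell to 0.648 of control with PRGL493 (-0.63, SE 0.11, adjusted p = 0.00033), was not called in knockdown (0.16, SE 0.11, adjusted p = 0.27) and differed between treatments (0.79, SE 0.11, adjusted p = 1.9e-05). Without knockdown replicate 1, CA9 was called higher in knockdown than in control (adjusted p = 0.021). CA9 overlaps exons of ARHGEF39 on the other strand, so part of its reads may belong to that gene.

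ADM, the vasodilator peptide adrenomedullin (chromosome 11, 10304680 to 10307397, plus strand), was at 94.5, 100.1 and 90.5 CPM under empty vector, 72.1, 85.6 and 75.7 CPM under the hairpin and 66.2, 64.7 and 66.8 CPM under the inhibitor. The 3 groups did not overlap. ADM fell to 0.819 of control in knockdown (log2 -0.29, SE 0.06, adjusted p = 0.0029) and to 0.694 with PRGL493 (-0.53, SE 0.06, adjusted p = 7.2e-06). VEGFA, the main signal for new blood vessels, fell from 1131 ± 55.8 CPM to 961 ± 38.8 CPM in knockdown (-0.23, SE 0.05, adjusted p = 0.0024) and to 893 ± 23.3 CPM with PRGL493 (-0.34, SE 0.05, adjusted p = 5.3e-05). The difference between treatments did not pass the test for VEGFA (0.11, adjusted p = 0.092), although the libraries of the treatments did not overlap. It passed under 3 of 19 alternatives (adjusted p down to 0.015).

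BNIP3, a mitophagy receptor, was the 1 of the 7 HIF targets that rose with PRGL493, from 432 ± 9.28 to 525 ± 26.3 CPM (log2 change 0.28, SE 0.05, adjusted p = 0.00044). BNIP3 was not called in knockdown (403 ± 19.8 CPM, -0.10, adjusted p = 0.16), although the libraries did not overlap control. It was called lower there without knockdown replicate 2 (adjusted p = 0.03). GENCODE lists 39 pseudogenes named after BNIP3, none with a row in the table. ANKRD37, a small ankyrin repeat protein, stayed near 6.31 ± 0.505 CPM in every group and was not called (-0.04, adjusted p = 0.85, and -0.00, adjusted p = 0.99). Its exons overlap UFSP2 and all 9 of its values were fractional. The 7 targets together took 0.365 ± 0.00927% of all counts in control, 0.303 ± 0.00316% in knockdown and 0.268 ± 0.00317% in PRGL493 cells, and NDRG1 and VEGFA made up most of that sum. In cell cultures measured as a whole, a change in the number of cells that express a gene and a change per cell cannot be told apart.

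**Figure D4:**
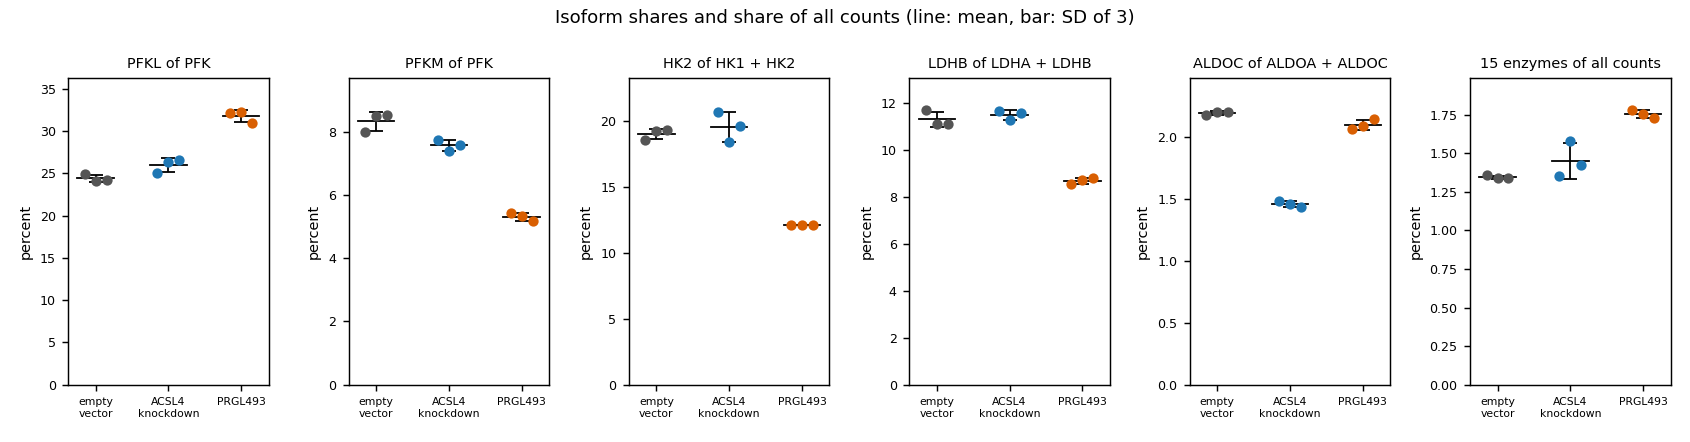
Shares in percent (y axes, from 0) by group, with points for libraries, a line for the mean and a bar for the SD of 3 libraries. The first 5 panels give an isoform's share of its family per kilobase of transcript and the last the share of the 15 enzymes in all counts. HK2 falls to 12.1% of its pair and PFKL rises to 31.8% of its family with PRGL493, while the ALDOC share is lowest in knockdown.

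Other genes of these pathways were taken from lists. Of 37 further HIF targets 36 were tested, and with PRGL493 7 were higher and 13 lower (19.4% and 36.1%, beside 21.4% and 20.4% of all genes), with a median log2 fold change of -0.02. In knockdown 8 were higher and 9 lower (beside 14.7% and 15.3% of all genes). EDN1, the vasoconstrictor endothelin, fell from 88.7 ± 3.47 to 26.2 ± 0.738 CPM in knockdown and to 35.0 ± 0.603 CPM with PRGL493 (-1.76 and -1.34, adjusted p = 2.7e-13 and 1.3e-11). The clock-linked repressor BHLHE40 fell by 1.38 in knockdown and by 0.46 with PRGL493 on the log2 scale. DDIT4, an mTORC1 inhibitor, rose by 1.21 in knockdown and by 0.98 with PRGL493. ANGPTL4, an inhibitor of lipoprotein lipase, fell with PRGL493 (9.96 ± 1.24 to 2.80 ± 0.450 CPM, -1.84, adjusted p = 1.0e-08) and was not called in knockdown (-0.07, adjusted p = 0.68). EDN1 and ANGPTL4 are also known to answer to signals other than HIF.

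Of 17 tested genes for HIF partners and oxygen-dependent control, 6 were higher and 2 lower with PRGL493 (35.3% and 11.8%, beside 21.4% and 20.4% of all genes). In knockdown 2 were higher and 2 lower (11.8% each, beside 14.7% and 15.3%). EPAS1, the second oxygen-regulated subunit, fell with PRGL493 from 147 ± 1.59 to 112 ± 4.36 CPM (log2 change -0.40, adjusted p = 1.4e-05), in the direction of HIF1A. EGLN1, the main HIF prolyl hydroxylase, rose to 170 ± 11.4 from 131 ± 3.20 CPM (0.38, adjusted p = 5.0e-05), opposite to EGLN3, and was lower in knockdown (-0.20, adjusted p = 0.012). The chaperone gene HSP90AA1 (0.35) and the partner subunit ARNT2 (0.34) rose with PRGL493. In knockdown CITED2, a competitor of HIF for its coactivator, fell from 243 ± 9.49 to 184 ± 9.89 CPM (-0.40, adjusted p = 2.0e-05), while SIAH2, a ubiquitin ligase, rose (0.32, adjusted p = 0.0065).

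A further list held less common isoforms together with enzymes of the branches to glycogen and of sugar phosphate removal. Of its 21 genes 12 passed the filter, and with PRGL493 3 rose and 3 fell (25% each), near the 21.4% and 20.4% of all genes. HKDC1, a hexokinase-like enzyme, fell from 91.7 ± 4.05 to 24.7 ± 0.408 CPM (log2 change -1.89, adjusted p = 3.2e-13) and was not called in knockdown (85.7 ± 4.22 CPM, -0.10, adjusted p = 0.20). HKDC1 thus moved with HK2 and against HK1. LDHD, which oxidises D-lactate, fell in both (3.60 ± 0.641 CPM in control, -0.51 in knockdown and -1.55 with PRGL493, adjusted p = 0.022 and 3.2e-06). PGM1, the link to glycogen, rose in both (0.20 and 0.25, adjusted p = 0.013 and 0.0023), and PGP, a phosphatase that clears side products, rose with PRGL493 (0.42, adjusted p = 0.0038).

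A list of other SLC2A family transporters, not all of them for glucose, and the glucose sensor MondoA with its targets had 13 tested genes. Of these 2 rose and 3 fell with PRGL493 (15.4% and 23.1%, beside 21.4% and 20.4% of all genes). In knockdown 3 rose and 2 fell (23.1% and 15.4%, beside 14.7% and 15.3%), so that the list lay near the share of all genes in both. TXNIP, an arrestin that removes glucose transporters from the surface, and its relative ARRDC4 went opposite ways in the treatments. TXNIP was at 1161 ± 27.6 CPM in control, 1435 ± 28.4 CPM in knockdown and 957 ± 14.0 CPM with PRGL493 (log2 change 0.31, adjusted p = 7.8e-05, and -0.28, adjusted p = 0.00010). ARRDC4 was at 12.5 ± 0.611, 23.4 ± 2.41 and 9.92 ± 1.18 CPM (0.91, adjusted p = 2.0e-06, and -0.34, adjusted p = 0.012). The direct comparison gave 0.58 for TXNIP and 1.25 for ARRDC4 (adjusted p = 2.3e-08 and 2.5e-08). The fructose transporter SLC2A5 (1.14 in knockdown, adjusted p = 0.0013) and SLC2A6 (0.50 with PRGL493, adjusted p = 0.00020) were higher. SLC2A4 was lower in both (-0.76 and -0.93, adjusted p = 0.011 and 0.0023). These transporters lay at levels of 1.14 to 22.5 CPM. MLXIP, which encodes MondoA, rose with PRGL493 (0.36, adjusted p = 0.0032).

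Of 18 genes that handle pyruvate and lactate, 3 rose and 3 fell with PRGL493 (16.7% each, beside 21.4% and 20.4% of all genes). In knockdown 4 rose and 3 fell (22.2% and 16.7%, beside 14.7% and 15.3%). PDHX, a structural part of pyruvate dehydrogenase, rose in knockdown (log2 change 0.25, adjusted p = 0.0023) and fell with PRGL493 (-0.31, adjusted p = 0.00026). DLD, another enzyme of the complex, fell with PRGL493 from 162 ± 6.04 to 125 ± 4.66 CPM (-0.37, adjusted p = 2.9e-05). The kinases that inactivate the complex gave PDK2 higher with PRGL493 (0.24, adjusted p = 0.0045) and PDK4 higher in knockdown (0.51, adjusted p = 0.0013). PDP1, the phosphatase that reactivates it, fell in knockdown (433 ± 17.6 to 342 ± 14.1 CPM, -0.34, adjusted p = 7.3e-05). SLC16A7, another lactate and pyruvate transporter, fell with PRGL493 as SLC16A1 did (3.79 ± 0.167 to 2.48 ± 0.357 CPM, -0.63, adjusted p = 0.0054).

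Of the 28 member calls with PRGL493, 14 of 16 higher and 10 of 12 lower ones held under all 19 alternatives, and the count of enzymes that rose stayed between 11 and 13. In knockdown 8 of 10 lower calls held under all 19 and none of the 3 higher ones did, and when libraries were scaled by totals alone 59.9% of all knockdown calls were higher against 49.0% with TMM factors.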

How the data were processed

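RNA-seq of 9 MDA-MB-231 libraries was analysed. The authors deposited a table of estimated counts per gene symbol, not scaled for depth. The build, per the submitters' processing notes, was GRCh38, while aligner, counter, annotation and strand setting were not given in the sources used here. Of the values 10.5% were not whole, so they were rounded. The design had assumed a count test, which also takes rounded values.

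Genes were filtered (filterByExpr), scaled by TMM and tested over all genes with edgeR 4.0.16 (glmQLFit, robust, R 4.3.3), group being the only term, with Benjamini-Hochberg adjustment over 14135 genes. CPM values are TMM-scaled. Transcript lengths came from GENCODE, 1 principal transcript per gene. The script was tested on simulated data. Titles give the groups and replicate numbers. Alternatives were DESeq2 1.42.0, other scalings and filters, a replicate block, a length and GC trend, unrounded values and each library left out.

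All 33 members are named, library by library where called with a log2 fold change of at least 0.5 in size against control, and up to 4 called genes per further list and treatment with the smallest adjusted p. Members and lists were chosen with earlier results of these data known. ELOB and ELOC were matched to their older symbols. The table has 28 symbols that read as dates, and none of these was named. Some genes that the rule would name are not reported here.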

Additional observations from a re-analysis of the deposited data

How the results depend on the processing

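Under 19 alternatives the direction of every member call was kept except for LDHB between knockdown and PRGL493, which went from 0.14 to -0.067 (log2) with the length and GC trend removed and to -0.067 with the replicate block as well, and was then not called. The cause was not tested. The count of enzymes higher in knockdown, 2 in the main analysis, was 1 with a replicate block, 1 with only the 2 groups compared in the fit, 4 with the length and GC trend removed and 4 with the trend and the replicate block. It was 0 to 4 when each library was left out in turn, 0 without any 1 control library or knockdown replicate 2 and 4 without knockdown replicate 1. The count of enzymes lower in knockdown was 3 to 5 (3 without control replicate 3) and that of HIF targets higher in knockdown 0 to 1 (1 without knockdown replicate 1) when each library was left out. All other counts of enzymes, HIF targets and genes stayed within 1.5 times. No source used here states that same-numbered libraries were paired, and the main analysis had no replicate block. Between control and knockdown, deviations of same-numbered libraries correlated at 0.108, 0.152 and 0.062, and those of other-numbered pairs at -0.138 to 0.025. For pairs with a PRGL493 library the ranges were -0.084 to -0.015 and -0.005 to 0.078. A pairing was thus not excluded. With the block, PFKM and TPI1 lost their calls in knockdown and PFKFB3 lost its call with PRGL493. With PRGL493, calls of SLC2A1, GPI, PFKFB3 and ENO2 were lost under at least 1 alternative, and PFKFB4 and LDHB passed under 6 each. SLC16A1 with PRGL493 rested on as few as 68 counts per library, which limits the precision of its fold.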

Other observations

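The pentose phosphate pathway branches off glycolysis and makes NADPH and ribose phosphate. Of its 10 tested genes 4 rose and 1 fell with PRGL493, beside 21.4% and 20.4% of all genes. PGD, a dehydrogenase that makes NADPH, rose from 106 ± 3.13 to 144 ± 2.35 CPM (SD, n = 3, log2 fold change 0.45, edgeR adjusted p = 1.3e-05). TKT, a transketolase that leads back into glycolysis, rose from 462 ± 4.18 to 588 ± 19.0 CPM (0.35, adjusted p = 0.00017), while RPIA, the ribose phosphate isomerase, fell from 26.1 ± 1.81 to 18.1 ± 1.16 CPM (-0.53, adjusted p = 2.8e-05). In knockdown 2 of the 10 were higher and 1 lower (20% and 10%, beside 14.7% and 15.3% of all genes), with a median of 0.01. The higher ones were PGLS and PRPS1 (0.44 and 0.23, adjusted p = 0.00052 and 0.0093).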
